A study of Mus musculus with 16 samples.

Results

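The genes described here are those of the Wnt pathway: the Wnt ligands, their Frizzled receptors and the Lrp5 and Lrp6 coreceptors, the secreted regulators of the R-spondin, Dkk, Sfrp and Notum families, the intracellular inhibitors Axin2 and Nkd1, β-catenin (*Ctnnb1*), and the TCF/LEF transcription factors. They were chosen by symbol, as every gene named Wnt or Fzd with a number plus 18 named regulators. The tables hold 47 such symbols, and 39 of them had a mean of at least 0.1 TPM (a transcript abundance, normalized for length and library size) on day 5 or day 7. Of these, 37 passed on day 5 and 38 on day 7, among 22581 and 24606 genes tested on these days. *Lef1* passed on day 5 only, and *Wnt6* and *Wnt8a* on day 7 only. The other 8, *Wnt1*, *Wnt3a*, *Wnt8b*, *Wnt9b*, *Wnt10a*, *Wnt10b*, *Wnt16* and *Dkk1*, stayed below that level on both days and were not tested between the shRNAs.

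Wnt proteins are lipid-modified and secreted, and bind Frizzled receptors together with Lrp5 or Lrp6. In the canonical branch this stops the Axin, Apc and Gsk3 complex from destroying β-catenin, which then enters the nucleus and acts with TCF/LEF factors on target genes such as *Axin2*. Other ligands, such as Wnt5a, are best known for β-catenin-independent signaling through planar polarity proteins, and in the developing cortex Wnt signaling is known for its part in progenitor proliferation and in the switch to neurogenesis.

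Polyadenylated RNA was sequenced from neural stem cells (NSCs) of C57BL/6 mouse embryos, isolated from cortices at E15 to E16 and grown as monolayers, in 16 libraries. All cultures carried a lentiviral shRNA, either a scrambled sequence (shRNA CON) or 1 sequence against the lncRNA *RUS* (shRNA RUS), and were collected on day 5 or day 7 after seeding, with 4 libraries for each shRNA and day. Growth medium held FGF2 and serum, and differentiation in Neurobasal medium was started 5 d after seeding. The embryos were pooled and of mixed sex per the study's methods, and the labels do not say whether the replicates were separate cultures, so p-values measure only the spread between these libraries.

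The tables hold no read counts, so the depth of the libraries is unknown. In each library 25615 to 29126 genes were above 0. TPM are given to 2 decimals, and levels below are TPM divided by a library factor (scaled TPM, with factors of 0.845 to 1.10 over the 16 libraries). The factors matter on day 5, where the median over all genes was, on the log2 scale, −0.06 with them and −0.21 without. *Gm20754*, the mouse *RUS* transcript, had 0.235, 0.117, 0.185 and 0.167 scaled TPM in the libraries labelled shRNA CON on day 5, and 0.0592, 0, 0.139 and 0.345 in those labelled shRNA RUS. On day 7 it had 0.653, 0.661, 0.238 and 0.506 in shRNA CON and 0.5, 0.348, 0 and 0.0364 in shRNA RUS. Replicate 4 of shRNA RUS on day 5 thus lay above every control of that day, the groups overlapped on both days, and neither difference passed the test (limma log2 fold change −0.40, adjusted p = 0.519, and −1.28, adjusted p = 0.114). At levels this low the tables do not check the shRNA labels. The study measured *RUS* in knockdown cells separately by RT-qPCR, which is not analysed here, and every direction below is between libraries as labelled.

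The cultures had the markers of NSCs, with a summed level of 8 genes of 12482 to 14623 scaled TPM in shRNA CON against 17767 to 21255 in shRNA RUS on day 5 (4 higher, 2 lower), and of 6813 to 7065 and 7047 to 7705 on day 7 (3 higher, 3 lower). Other marker lists moved with the shRNA too. Their counts stand beside 14.8% of all genes called higher and 17.9% lower on day 5, and 23.4% higher and 25.8% lower on day 7. All 6 proliferation genes were lower on both days, with sums of 649.7 to 678.5 in shRNA CON and 368.3 to 412.1 with shRNA RUS on day 5, and 673.6 to 683.5 and 267.4 to 301.2 on day 7. Microglial genes were lower for 2 of 6 on day 5 and 6 of 6 on day 7, where they summed to 180.7 to 193.3 and 76.2 to 97.6. Of the oligodendrocyte lineage 4 and then 5 of 6 were lower, with day 7 sums of 176.2 to 208.1 and 93.9 to 142.3. Of 5 fibroblast and meningeal genes 1 was higher on day 5 and 3 on day 7, with day 7 sums of 14.9 to 16.8 and 31.4 to 35.3, and *Lum* was below the filter. Of 5 genes of choroid plexus and cortical hem 2 were higher and 1 lower on day 5 and 2 were lower on day 7, with day 7 sums of 32.7 to 35.4 and 22.6 to 24.1. Neuronal genes summed to 323.6 to 408.7 and 281.9 to 316.0 on day 5 (1 of 6 higher, 2 lower) and to overlapping values on day 7 (3 higher, 1 lower), and 6 astrocyte genes to 3209 to 3337 and 4181 to 4321 on day 5 (1 higher, 1 lower) and 1602 to 1651 and 1719 to 1933 on day 7 (2 higher, 1 lower). Endothelial genes summed to 6.21 to 6.73 and 3.56 to 4.86 on day 5 and to 6.87 to 7.33 and 3.25 to 4.12 on day 7 (1 of 4 tested lower on each day), with *Cldn5* and *Cdh5* below the filter. The part of these cells in the values below was not tested, and in such bulk samples fewer cells of a type and less RNA per cell cannot be told apart.

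Where TCF/LEF factors bind, the core CTTTGA is the usual motif, so the stretches before the start sites of 4 of these genes are shown. They belong to the ligand *Wnt9a* and the antagonist *Dkk2*, both lower with shRNA RUS on both days, to the ligand *Wnt5b*, which holds the motif, and to the feedback gene *Axin2*. Each is the 250 bases upstream of an annotated start, 5′ to 3′ along the gene, from RefSeq on GRCm38.p6, with a match to the core in capitals.
Wnt9a (chr11:59306680-59306929, plus strand): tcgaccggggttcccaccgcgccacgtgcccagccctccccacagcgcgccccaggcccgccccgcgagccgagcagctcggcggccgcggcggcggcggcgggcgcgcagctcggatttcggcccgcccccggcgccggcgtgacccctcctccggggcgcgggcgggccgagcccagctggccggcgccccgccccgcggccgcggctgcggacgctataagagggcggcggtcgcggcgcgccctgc
Wnt5b (chr6:119449387-119449636, minus strand): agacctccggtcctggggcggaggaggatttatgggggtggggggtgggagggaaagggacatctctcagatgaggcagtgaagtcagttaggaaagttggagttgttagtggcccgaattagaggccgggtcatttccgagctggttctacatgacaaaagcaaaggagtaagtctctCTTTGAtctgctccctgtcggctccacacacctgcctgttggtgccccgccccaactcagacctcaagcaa
Dkk2 (chr3:132085042-132085291, plus strand): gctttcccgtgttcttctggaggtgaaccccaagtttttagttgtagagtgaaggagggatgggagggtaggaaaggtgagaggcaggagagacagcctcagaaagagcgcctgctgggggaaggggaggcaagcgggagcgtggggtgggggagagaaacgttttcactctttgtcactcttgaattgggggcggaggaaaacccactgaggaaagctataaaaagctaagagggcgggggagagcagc
Axin2 (chr11:108920099-108920348, plus strand): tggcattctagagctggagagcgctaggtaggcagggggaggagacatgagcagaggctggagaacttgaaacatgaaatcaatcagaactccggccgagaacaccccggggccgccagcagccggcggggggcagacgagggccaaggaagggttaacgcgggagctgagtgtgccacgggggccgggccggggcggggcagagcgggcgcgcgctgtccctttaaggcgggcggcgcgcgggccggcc
RefSeq windows of 300 bases, from 250 before to 50 after a start, were at hand for 32 of the 47 symbols. The core, read on both strands as CTTTGA or TCAAAG, was found for 5 of the 32 (15.6%), *Dkk1*, *Fzd1*, *Lef1*, *Wnt11* and *Wnt5b*, and for 18.2% of all 27025 genes with a window. The longer form CTTTGAT, which overlaps the core, was found for *Wnt11* and *Wnt5b* (6.2%) and for 4.3% of all genes. In *Wnt5b* it begins 71 bases before 1 of 3 annotated starts, and the other 2 windows hold none.

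With shRNA RUS, 6 of the 37 genes were higher and 9 were lower on day 5, and 12 of 38 were higher and 8 were lower on day 7. A gene is called higher or lower where limma's two-sided test across all genes, with Benjamini-Hochberg adjustment, gave an adjusted p under 0.05. The share called was 40.5% on day 5, against 32.7% of all genes tested (14.8% higher and 17.9% lower), and 52.6% on day 7, against 49.2% (23.4% higher and 25.8% lower), so that it stood near the background on day 7. The 4 libraries of one shRNA lay wholly above or below those of the other for 14 genes on day 5 (5 higher, 9 lower) and 20 on day 7 (12 higher, 8 lower), as for 32.8% and 47% of all genes. For this, the Wnt pathway genes were scaled by the factors over 16 libraries, and all genes by the factors of each day. In the median, the Wnt pathway genes differed by −0.06 and 0.13 on the log2 scale, and all genes by −0.06 and −0.03. Day 5 and day 7 libraries are separate, and of the 36 genes tested on both days 6 were higher on both (*Wnt7b*, *Fzd8*, *Rspo2*, *Dkk3*, *Sfrp1*, *Tcf7l1*) and 6 lower on both (*Wnt4*, *Wnt7a*, *Wnt9a*, *Fzd6*, *Dkk2*, *Tcf7*). *Lrp5* was called lower on day 5 and higher on day 7, and 14 genes were called on neither day. For all genes, the share called on both days was not counted, so these counts have no background beside them. *Rspo2* was tested on day 5 only through shRNA RUS, as its controls lay below the filter of 0.1 TPM. With quantile normalization, the calls of day 5 were 6 higher and 5 lower, and the lower ones numbered 4 or 5 without replicate 1, 2 or 3 of shRNA CON or replicate 1 of shRNA RUS.

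**Figure D1:**
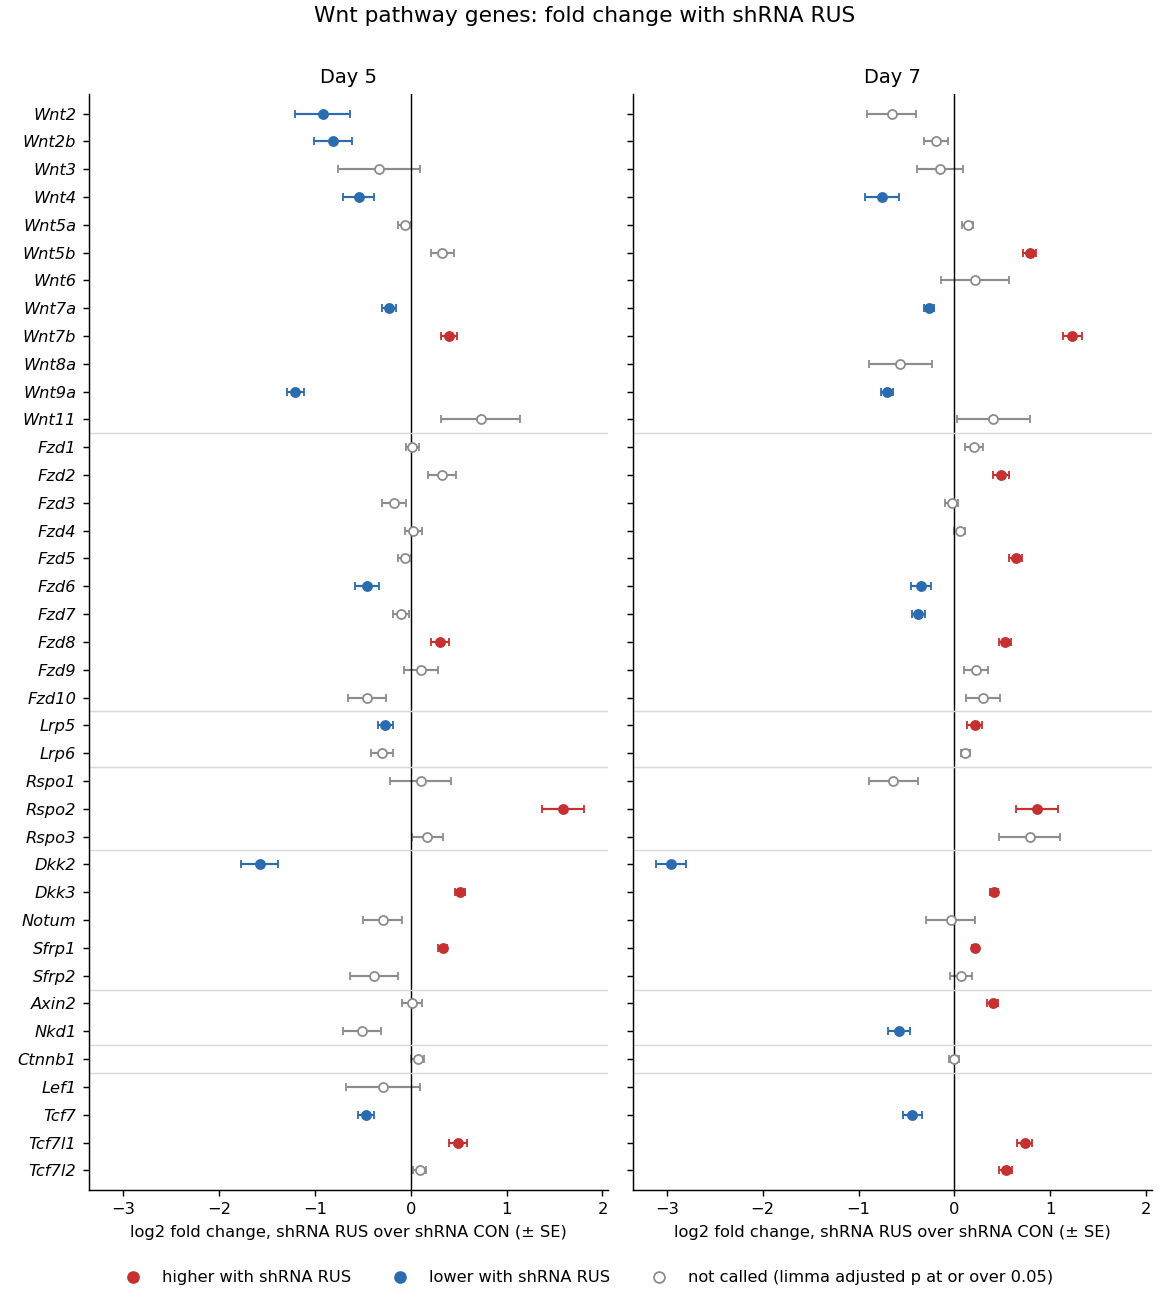
Log2 fold change of shRNA RUS over shRNA CON (x axis, ± SE of the limma fit) for the Wnt pathway genes tested on day 5 (left panel) or day 7 (right panel), grouped by role with grey lines between groups. Filled red points were higher and filled blue points lower at an adjusted p under 0.05, and open points were not called. The widest deviations are *Dkk2* on the lower side (−1.58 and −2.96) and *Rspo2* on day 5 and *Wnt7b* on day 7 on the higher side (1.59 and 1.23), where the controls of *Rspo2* on day 5 had a mean below the filter of 0.1 TPM.

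Of the 19 Wnt genes, 10 passed the filter on day 5 and 12 on day 7, and 5 of them, *Wnt7b*, *Wnt7a*, *Wnt5b*, *Wnt5a* and *Wnt9a*, made up nearly the whole ligand mRNA. *Wnt7b*, a canonical ligand of the developing forebrain, was the most abundant one on day 5, with 43.0, 46.9, 47.9 and 46.8 scaled TPM in shRNA CON and 59.6, 69.7, 62.2 and 53.3 in shRNA RUS. On day 7 it had fallen to 16.6, 16.2, 17.4 and 13.8 in shRNA CON, but stood at 32.6, 35.8, 42.4 and 38.6 in shRNA RUS. All libraries with shRNA RUS lay above all controls on both days. The fold was 1.32 on day 5 (log2 0.40, SE 0.08, limma adjusted p = 0.00525) and 2.35 on day 7 (log2 1.23, SE 0.10, limma adjusted p = 6.36e-06).

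*Wnt7a*, the closest relative of *Wnt7b*, moved the other way. It had 25.5, 29.0, 29.8 and 30.1 scaled TPM in shRNA CON against 23.0, 25.9, 24.9 and 23.2 in shRNA RUS on day 5, and 16.9, 16.7, 16.4 and 15.4 against 13.5, 13.0, 14.1 and 13.2 on day 7. The groups overlapped on day 5 and were apart on day 7, with log2 fold changes of −0.23 (SE 0.07, limma adjusted p = 0.0369) and −0.27 (SE 0.05, limma adjusted p = 0.00188). The call of day 5 was lost without any 1 of 6 libraries, replicates 2, 3 and 4 of shRNA CON and 1, 3 and 4 of shRNA RUS (limma adjusted p between 0.0634 and 0.101). The ratio of *Wnt7b* to *Wnt7a* within a library, which no library factor touches, was 1.56 to 1.69 in shRNA CON and 2.30 to 2.69 with shRNA RUS on day 5. On day 7 it was 0.897 to 1.06 in shRNA CON and 2.43 to 3.01 in shRNA RUS, so that *Wnt7b* and *Wnt7a* stood near parity in control cultures and not in the others. On GRCm38 (GENCODE vM21), *Wnt7b* lies on chr15:85535437-85582473, overlapped on the other strand by *AU022754*, and *Wnt7a* on chr6:91363981-91411363, both on the minus strand.

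*Wnt9a*, the fifth of these ligands, was lower on both days. On day 5 it had 10.5, 10.2, 10.04 and 11.6 scaled TPM in shRNA CON and 4.53, 5.07, 4.23 and 4.29 in shRNA RUS, which is 2.30-fold lower (log2 fold change −1.20, SE 0.09, limma adjusted p = 2.64e-05). Levels on day 7 were 16.2, 15.9, 16.0 and 14.9 in shRNA CON and 8.78, 9.53, 9.84 and 10.06 in shRNA RUS, 1.63-fold lower (−0.71, SE 0.06, limma adjusted p = 1.04e-05). Groups did not overlap on either day. *Wnt9a* lies on chr11:59306928-59333552, head to head with *Wnt3a* at a gap of 16175 bases, and *Wnt3a* had at most 0.0364 scaled TPM in any library.

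*Wnt5b* and *Wnt5a* are close relatives and are mostly linked to β-catenin-independent signaling. On day 7, *Wnt5b* had 15.1, 14.4, 14.1 and 12.8 scaled TPM in shRNA CON and 23.6, 26.8, 23.1 and 23.0 in shRNA RUS, all of them above the controls (log2 fold change 0.78, SE 0.07, limma adjusted p = 1.47e-05). On day 5 the groups overlapped, with 31.3, 35.1, 33.2 and 36.5 against 38.3, 49.6, 50.0 and 34.9, and the difference of 0.33 (SE 0.12, limma adjusted p = 0.0660) missed the threshold. It passed without replicate 4 of shRNA RUS (0.43, limma adjusted p = 0.0119), with a filter at 1 TPM and in 1 fit over both days. *Wnt5a* ranged from 22.1 to 24.5 in shRNA CON and from 20.4 to 23.8 in shRNA RUS on day 5. On day 7 these ranges were 25.2 to 27.4 and 27.7 to 31.4, without overlap, a log2 difference of 0.14 (95% interval 0.02 to 0.26) that missed the threshold (limma adjusted p = 0.0624) and passed it only with a filter at 1 TPM. *Wnt5b* (chr6:119432531-119544347) is overlapped on the opposite strand by *Fbxl14*, and whether reads were counted by strand is not given in the sources used here.

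**Figure D2:**
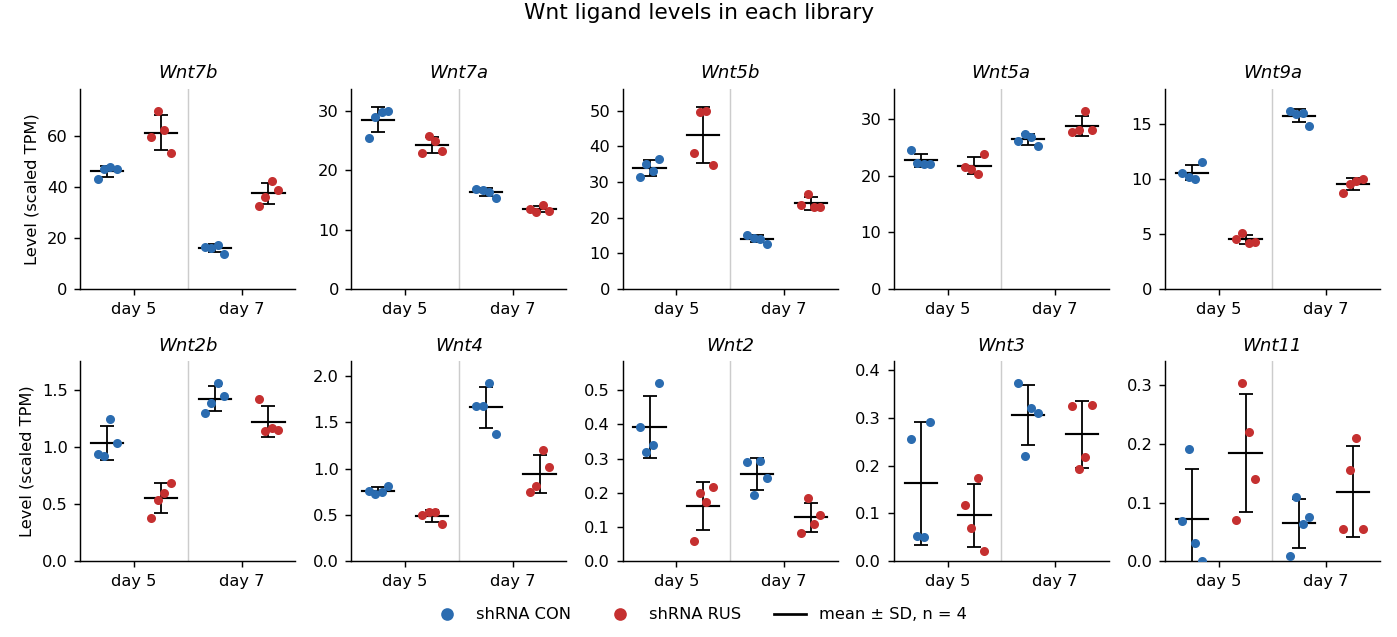
Scaled TPM (y axis, linear from 0) of 10 Wnt ligands in each of the 16 libraries, by day and shRNA. Points are libraries, black lines the mean ± SD of 4 libraries (cut at 0). *Wnt7b* and *Wnt5b* in shRNA RUS lie above the controls on day 7 and *Wnt9a* and *Wnt4* below them on both days, whereas *Wnt3* and *Wnt11* overlap.

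The other ligands stood below 2 scaled TPM in every library. *Wnt4* had 0.755, 0.721, 0.752 and 0.813 in shRNA CON against 0.497, 0.526, 0.532 and 0.399 in shRNA RUS on day 5, and 1.67, 1.67, 1.92 and 1.38 against 0.75, 0.807, 1.2 and 1.02 on day 7. The groups were apart on both days, with log2 fold changes of −0.55 (SE 0.16, limma adjusted p = 0.0309) and −0.76 (SE 0.18, limma adjusted p = 0.00547). The former was lost without any 1 of 7 libraries, all but replicate 3 of shRNA RUS (limma adjusted p between 0.0508 and 0.0782). *Wnt2b*, a ligand of the cortical hem, was lower on day 5 only, with 0.923 to 1.25 in shRNA CON and 0.379 to 0.690 in shRNA RUS (−0.81, SE 0.20, limma adjusted p = 0.0126). By day 7 it stood at 1.31 to 1.57 and 1.15 to 1.43 (−0.20, 95% interval −0.48 to 0.08). *Wnt2* was also lower on day 5, with 0.318 to 0.521 against 0.0592 to 0.216 (−0.92, SE 0.29, limma adjusted p = 0.0357), and this call was lost without any 1 of 7 libraries, all but replicate 4 of shRNA RUS (limma adjusted p between 0.0514 and 0.0961). *Wnt3* stayed at or below 0.373 and *Wnt11* at or below 0.304 in every library, and neither was called. On day 7, *Wnt2* (−0.66, limma adjusted p = 0.0624), *Wnt6* (at most 0.236) and *Wnt8a* (at most 0.318) were not called either. *Wnt2*, whose groups were apart, was called lower with eBayes without a trend and in 1 fit over the 16 libraries (limma adjusted p = 0.0125 and 0.0441), and *Wnt8a* without replicate 3 of shRNA RUS (−0.85, limma adjusted p = 0.0340). On the log2(scaled TPM + 0.1) scale used here, fold changes of such low genes come out smaller than the ratio of their means.

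Added up, the 19 ligands came to 137.4 to 149.8 scaled TPM in shRNA CON and 141.3 to 173.4 with shRNA RUS on day 5, and to 86.1 to 95.4 and 109.1 to 124.4 on day 7. The makeup of this sum differed by shRNA and day. *Wnt7b* was 31.9% ± 0.788 (SD, n = 4) of it in shRNA CON against 39.03% ± 1.36 in shRNA RUS on day 5, and 17.2% ± 0.919 and 32.0% ± 1.96 on day 7. *Wnt9a* was 7.32% ± 0.426 and 2.90% ± 0.217 on day 5, and 17% ± 0.230 and 8.21% ± 0.327 on day 7. *Wnt5a* took the largest share in control cultures on day 7 (28.4% ± 0.779), where *Wnt7b* still did in shRNA RUS. Shares of 1 sum are tied to each other, so they are given as a description with no test.

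**Figure D3:**
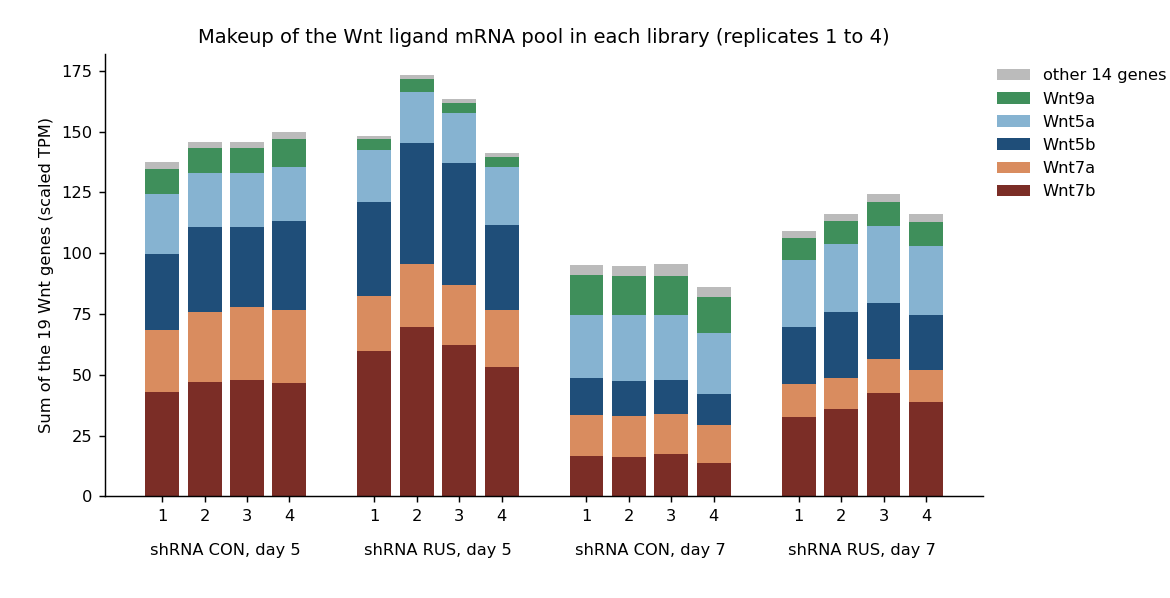
Sum of the scaled TPM of the 19 Wnt genes (y axis) in each of the 16 libraries, stacked by gene, with replicates 1 to 4 along the x axis under each group. The *Wnt7b* block at the base shrinks from day 5 to day 7 in shRNA CON (means of 46.1 and 16.0 scaled TPM) more than in shRNA RUS (61.2 and 37.4), and the *Wnt9a* block is thinner in shRNA RUS on both days.

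All 10 Frizzled genes, the seven-pass receptors of Wnt proteins, were expressed. *Fzd3* was the most abundant, with 35.7 to 72.1 scaled TPM in the 16 libraries, and *Fzd10* the least, with 0.248 to 1.13. On day 5, 1 was higher (*Fzd8*) and 1 lower (*Fzd6*), and on day 7, 3 were higher (*Fzd2*, *Fzd5*, *Fzd8*) and 2 lower (*Fzd6*, *Fzd7*). The share called was 20% on day 5, beside 32.7% of all genes, and 50% on day 7, beside 49.2%. The sum of the 10 was 125.2 to 130.1 in shRNA CON and 120.9 to 131.8 with shRNA RUS on day 5, and 134.9 to 144.6 and 148.4 to 155.9 on day 7.

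Among the Frizzled genes, *Fzd5* had the largest change of day 7. It had 9.59, 10.4, 10.7 and 9.32 scaled TPM in shRNA CON against 14.3, 15.9, 15.0 and 16.8 in shRNA RUS on day 7, a fold of 1.56 (log2 0.64, SE 0.07, limma adjusted p = 5.02e-05). Its day 5 levels were 7.65 to 8.29 and 7.32 to 8.07, with a log2 difference of −0.06 (95% interval −0.22 to 0.09). The groups overlapped on day 5 and were apart on day 7. *Fzd8* had 11.0, 11.7, 12.2 and 10.5 in shRNA CON and 15.4, 16.5, 16.7 and 16.2 with shRNA RUS on day 7 (0.53, SE 0.06, limma adjusted p = 7.53e-05). Its call on day 5, of 0.30 (SE 0.09, limma adjusted p = 0.0322) with overlapping groups, was lost with TPM as deposited (0.14, limma adjusted p = 0.208) and without any 1 of replicates 1, 2 and 3 of either shRNA (limma adjusted p between 0.0632 and 0.0819).

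*Fzd2* had 13.2 to 16.2 scaled TPM in shRNA CON against 18.6 to 22.1 in shRNA RUS on day 7 (log2 fold change 0.48, SE 0.08, limma adjusted p = 0.001). On day 5 the groups overlapped, and its difference of 0.33 passed only without replicate 4 of shRNA RUS (0.46, limma adjusted p = 0.0116) or in 1 fit over both days. *Fzd7*, in contrast, had 8.89, 9.24, 10.03 and 9.20 in shRNA CON and 6.73, 7.72, 7.27 and 6.71 with shRNA RUS on day 7, with no overlap (−0.38, SE 0.07, limma adjusted p = 0.00143). *Fzd6*, a receptor of the planar polarity branch, had 10.6 to 13.0 and 6.88 to 10.3 on day 5 (−0.46, SE 0.13, limma adjusted p = 0.0220), and 12.1 to 13.9 and 9.06 to 12.3 on day 7 (−0.35, SE 0.10, limma adjusted p = 0.0180). Its groups were apart on day 5 only, and the calls were lost without replicate 1, 2 or 3 of shRNA CON or 2 of shRNA RUS on day 5 (limma adjusted p between 0.0503 and 0.0603) and without replicate 2 or 4 of shRNA RUS on day 7 (0.0501 and 0.0503). *Fzd1*, *Fzd3*, *Fzd4*, *Fzd9* and *Fzd10* were called on neither day, and of these only *Fzd10* had groups apart, on day 5 (0.381 to 0.451 and 0.248 to 0.351, log2 difference −0.45, limma adjusted p = 0.112). There it would be called lower with eBayes without a trend and in 1 fit over the 16 libraries (limma adjusted p = 0.0121 and 0.0373). Without 1 library *Fzd3* would be called on day 5 (replicate 4 of shRNA RUS, −0.29, limma adjusted p = 0.0436) and *Fzd1* on day 7 (replicate 1 of shRNA RUS, 0.28, limma adjusted p = 0.0242).

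Of the coreceptors, *Lrp5* was called lower on day 5 and higher on day 7, close to the threshold each time, and *Lrp6* on neither day. *Lrp5* had 8.59, 8.50, 8.54 and 7.90 scaled TPM in shRNA CON against 6.30, 7.77, 7.04 and 6.75 in shRNA RUS on day 5 (log2 fold change −0.26, SE 0.08, limma adjusted p = 0.0351). Levels on day 7 were 10.8, 10.9, 11.4 and 10.9 against 10.8, 13.0, 13.2 and 13.7 (0.21, SE 0.08, limma adjusted p = 0.0470). The groups were apart on day 5 and overlapped on day 7. The call of day 5 was lost without replicate 1, 2 or 3 of shRNA CON or 1, 3 or 4 of shRNA RUS (limma adjusted p between 0.0560 and 0.0900) and under quantile normalization. That of day 7 was lost without any 1 library but replicate 1 of shRNA RUS (limma adjusted p between 0.0625 and 0.114) and with TPM as deposited. *Lrp6* had 21.4 to 25.7 and 16.8 to 23.9 on day 5 (−0.30, limma adjusted p = 0.0722), and −0.41 without replicate 4 of shRNA RUS (limma adjusted p = 0.00223). It was also called lower there with TPM as deposited, with 75th percentile scaling and in 1 fit over the 16 libraries (limma adjusted p = 0.0322, 0.0462 and 0.0159). Its day 7 ranges were 31.7 to 34.6 and 33.5 to 37.4 (0.11, 95% interval 0.01 to 0.21, limma adjusted p = 0.0570), and passed without replicate 4 of shRNA CON or of shRNA RUS (limma adjusted p between 0.0286 and 0.0394), and with a filter at 1 TPM or TPM as deposited (limma adjusted p = 0.0454 and 0.0464).

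**Figure D4:**
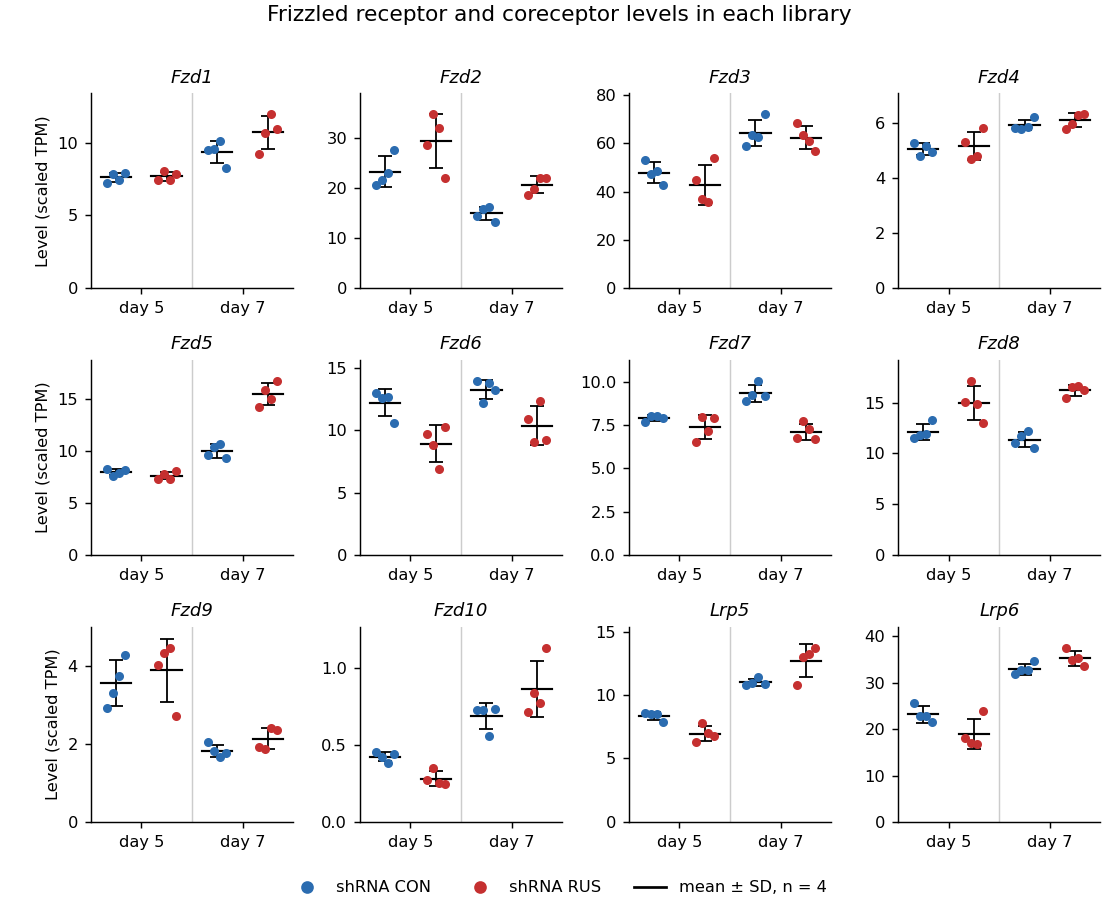
Scaled TPM (y axis, linear from 0) of the 10 Frizzled receptors and of *Lrp5* and *Lrp6* in each of the 16 libraries, by day and shRNA, with black lines for the mean ± SD of 4 libraries. *Fzd2*, *Fzd5* and *Fzd8* with shRNA RUS lie above all controls on day 7 and *Fzd7* below them.

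Dkk proteins block Lrp5 and Lrp6, except the divergent Dkk3, Sfrp proteins bind Wnts outside the cell, Notum removes their lipid, and R-spondins strengthen Wnt signaling by sparing Frizzled receptors from degradation. *Dkk2* (chr3:132085292-132180304) had the largest decrease of all these genes on both days. It had 1.41, 1.42, 1.86 and 1.77 scaled TPM in shRNA CON and 0.521, 0.316, 0.578 and 0.485 with shRNA RUS on day 5, a 2.98-fold decrease of values with 0.1 added (log2 fold change −1.58, SE 0.20, limma adjusted p = 0.000362). By day 7 it stood at 2.59, 2.88, 2.97 and 3.45 in shRNA CON and 0.333, 0.330, 0.309 and 0.227 in shRNA RUS, a 7.76-fold decrease on the same scale (−2.96, SE 0.15, limma adjusted p = 6.08e-07). With 0.1 added, both folds come out smaller than the ratio of the mean levels. Each control lay above each library with shRNA RUS on both days. The authors' mean normalized count of *Dkk2* over the 8 libraries of a day was 93.1 on day 5 and 149.7 on day 7.

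*Dkk3* and *Sfrp1* were far more abundant and were higher with shRNA RUS. *Dkk3* had 166, 154, 169 and 159 scaled TPM in shRNA CON against 220, 234, 231 and 238 in shRNA RUS on day 5 (log2 fold change 0.51, SE 0.05, limma adjusted p = 0.000105), and 98.1 to 110 against 132 to 138 on day 7 (0.41, SE 0.04, limma adjusted p = 2.35e-05). *Sfrp1* had 60.6 to 65.5 and 78.0 to 80.2 on day 5 (0.33, SE 0.04, limma adjusted p = 0.000563), and 85.1 to 88.7 and 96.5 to 103 on day 7 (0.21, SE 0.03, limma adjusted p = 0.000388). Neither gene had overlapping groups on either day. *Sfrp2* (1.06 to 3.24 over all libraries) and *Notum* (0.291 to 3.10) were not called, with log2 differences on day 7 of 0.07 (95% interval −0.19 to 0.32) and −0.04 (95% interval −0.62 to 0.54).

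Among the R-spondins, *Rspo2* had 0.0981, 0.117, 0.113 and 0.0730 scaled TPM in shRNA CON and 0.604, 0.444, 0.486 and 0.550 with shRNA RUS on day 5, and 0.149, 0.119, 0.183 and 0.215 against 0.380, 0.403, 0.327 and 0.373 on day 7. On day 5 the controls lay below the filter, with a mean of 0.0975 TPM against 0.455 in shRNA RUS, so that *Rspo2* was tested on that day through the group where it was high. All libraries with shRNA RUS were above all controls, at a level where the authors' mean normalized count was 24.5 and 21.5 (log2 fold changes 1.59, SE 0.22, limma adjusted p = 0.00065, and 0.86, SE 0.22, limma adjusted p = 0.00949). *Rspo1* (0.440 to 3.27 over all libraries) and *Rspo3* (0.177 to 1.06) were not called. On day 7 their log2 differences were −0.64 (limma adjusted p = 0.0671) and 0.79 (limma adjusted p = 0.0677), and they passed without replicate 1 of shRNA RUS (−0.78, limma adjusted p = 0.0376) and without replicate 3 of shRNA CON (1.03, limma adjusted p = 0.0198), respectively. *Rspo1* also passed with 75th percentile scaling (limma adjusted p = 0.0493), and *Rspo3* with quantile normalization and in 1 fit over the 16 libraries (limma adjusted p = 0.0454 and 0.0192).

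Inside the cell, *Ctnnb1*, which encodes β-catenin, was the most abundant of these genes, with 720 to 934 scaled TPM in the 16 libraries. Its log2 differences were 0.07 (95% interval −0.09 to 0.23) on day 5 and −0.00 (95% interval −0.13 to 0.12) on day 7. *Axin2* (chr11:108920349-108950783, with *Gm11670* on the other strand), a scaffold of the destruction complex and a widely used readout of canonical signaling, had 10.4, 10.7, 10.8 and 10.1 in shRNA CON against 9.03, 12.5, 9.75 and 11.4 in shRNA RUS on day 5, where the groups overlapped (0.01, 95% interval −0.22 to 0.24). The day 7 levels were 10.5, 10.3, 10.1 and 9.77 in shRNA CON and 12.1, 13.5, 13.6 and 14.04 in shRNA RUS, with no overlap (0.40, SE 0.06, limma adjusted p = 0.000388). *Nkd1*, an inhibitor of Dishevelled that is likewise known as a Wnt-induced gene, was lower on day 7, with 5.64, 5.51, 4.95 and 4.63 against 3.18, 2.97, 3.45 and 4.09 (−0.58, SE 0.11, limma adjusted p = 0.00223). Levels on day 5 were 5.78 to 7.15 and 3.17 to 6.23 (−0.50, limma adjusted p = 0.0814), and passed without replicate 2 of shRNA RUS (−0.65, limma adjusted p = 0.0310) and with TPM as deposited, 75th percentile scaling or 1 fit over both days. *Axin2* and *Nkd1*, both known as feedback inhibitors of the pathway, thus lay on opposite sides of the controls on day 7.

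The TCF/LEF factors also split. *Tcf7l1*, known mainly as a repressor of Wnt targets, had 11.0, 11.0, 11.0 and 11.5 scaled TPM in shRNA CON and 14.6, 17.8, 17.2 and 13.5 with shRNA RUS on day 5 (log2 fold change 0.49, SE 0.09, limma adjusted p = 0.00365), and 11.3, 11.1, 11.99 and 10.9 against 16.2, 18.6, 19.2 and 21.2 on day 7 (0.73, SE 0.08, limma adjusted p = 5.49e-05). *Tcf7*, which like *Lef1* is known mainly as an activator and as a Wnt target, had 8.34, 8.75, 8.70 and 8.04 in shRNA CON against 6.01, 6.26, 5.42 and 6.69 in shRNA RUS on day 5 (−0.47, SE 0.08, limma adjusted p = 0.00241), and 3.22 to 4.06 against 2.48 to 2.90 on day 7 (−0.44, SE 0.10, limma adjusted p = 0.00595). For both genes the groups were apart on both days. Within a library, *Tcf7l1* stood at 1.25 to 1.43 times *Tcf7* in shRNA CON and 2.01 to 3.17 times in shRNA RUS on day 5, and at 2.74 to 3.39 and 6.28 to 7.73 times on day 7. *Tcf7l2*, which can act either way, had 15.7, 17.1, 15.4 and 15.0 in shRNA CON and 22.0, 21.3, 22.4 and 25.4 with shRNA RUS on day 7 (0.53, SE 0.07, limma adjusted p = 0.000118), and overlapping groups on day 5 (0.09, 95% interval −0.07 to 0.25). *Lef1* stayed at or below 0.268 in every library, and its difference on day 5 was −0.29 (95% interval −1.16 to 0.58).

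**Figure D5:**
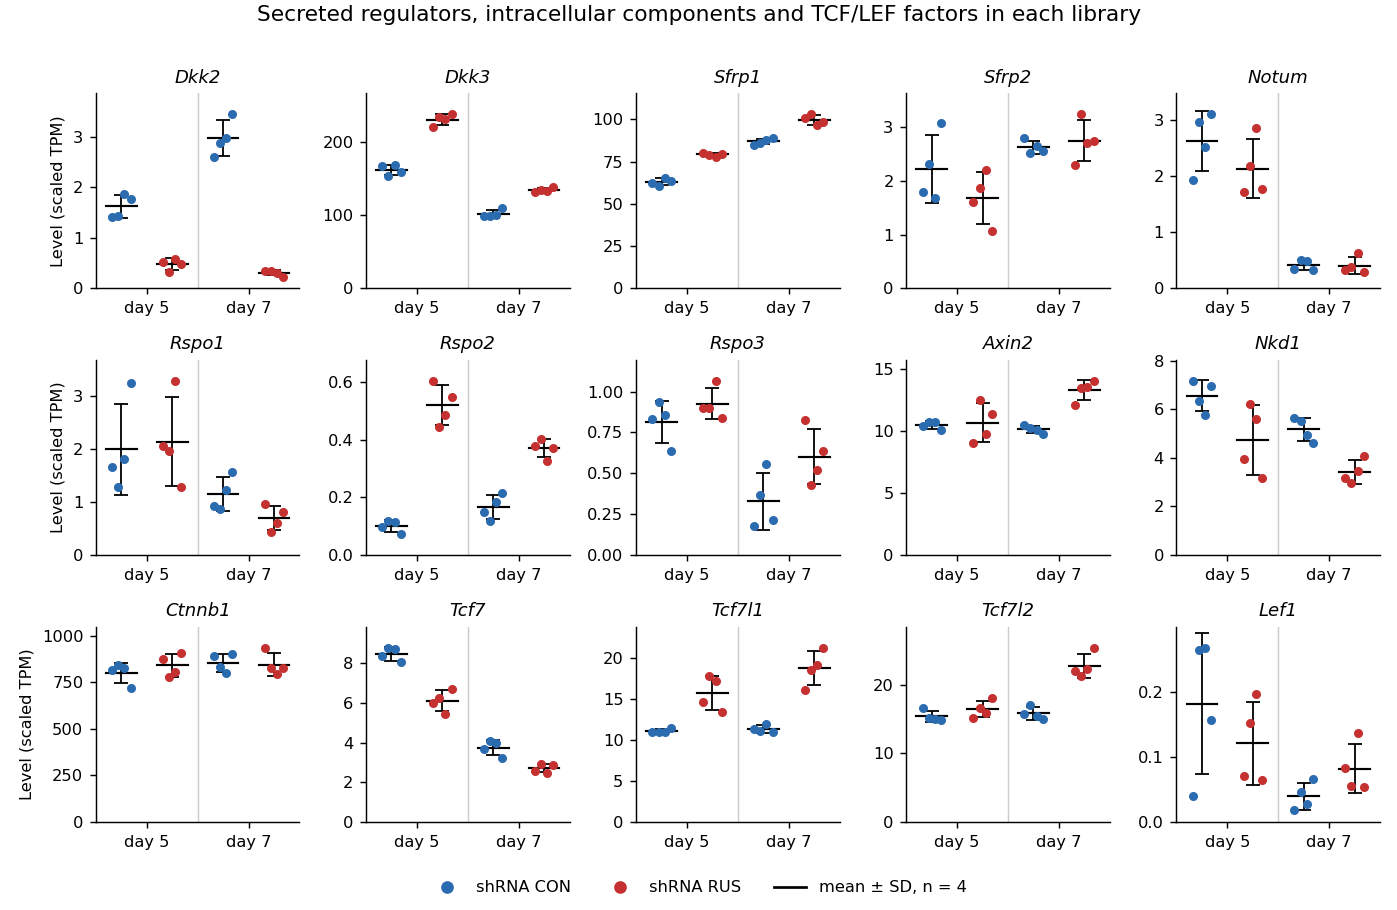
Scaled TPM (y axis, linear from 0) of the secreted regulators, *Axin2*, *Nkd1*, *Ctnnb1* and the TCF/LEF factors in each of the 16 libraries, by day and shRNA, with black lines for the mean ± SD of 4 libraries. *Dkk2* and *Tcf7* lie below the controls and *Dkk3*, *Sfrp1*, *Rspo2* and *Tcf7l1* above them on both days, while *Ctnnb1* overlaps throughout.

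From day 5 to day 7, 15 of 38 Wnt pathway genes rose and 10 fell in shRNA CON, and 17 rose and 11 fell in shRNA RUS. The share called was 65.8% in shRNA CON, against 48.5% of all genes (26.9% higher and 21.6% lower), and 73.7% in shRNA RUS, against 60.8% (35% higher and 25.8% lower). The 2 changes come from 1 fit over the 16 libraries, and the median of all genes in them was 0.07 and 0.13, and 0.20 and 0.41 with TPM as deposited. The calls with TPM as deposited were 18 higher and 10 lower in shRNA CON and 21 and 8 in shRNA RUS, and with quantile normalization 11 and 13, and 13 and 14. In control cultures *Wnt7b* fell by 1.52, *Wnt5b* by 1.27 and *Wnt7a* by 0.80 on the log2 scale, whereas *Wnt4* rose by 1.02, *Wnt9a* by 0.57 and *Wnt5a* by 0.22, and these were called in every alternative that tested them, *Wnt4* falling below the filter at 1 TPM (limma adjusted p between 2.09e-09 and 0.00594). *Notum* fell from 1.92 to 3.10 scaled TPM on day 5 to 0.318 to 0.505 on day 7, the largest decrease among the 38 genes in shRNA CON (−2.41, SE 0.22, limma adjusted p = 2.91e-07), and *Tcf7* fell by 1.16 (SE 0.09, limma adjusted p = 3.11e-08). *Lrp5* and *Lrp6* rose by 0.39 and 0.51 in shRNA CON and by 0.85 and 0.91 in shRNA RUS, each called in every alternative.

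Whether the difference between the shRNAs changed between the days was tested as an interaction. It was positive for 10 of 38 genes and negative for 4 (36.8% called, against 29.8% of all genes, 15.2% positive and 14.6% negative), and with TPM as deposited for 14 and 1. The median interaction of all genes was 0.04, and 0.19 with TPM as deposited. The 6 genes called in every alternative were *Wnt7b* (0.81, SE 0.13, limma adjusted p = 0.000307), *Fzd5* (0.69, SE 0.09, limma adjusted p = 6.85e-05), *Wnt9a* (0.49, SE 0.10, limma adjusted p = 0.00165), *Lrp5* (0.47, SE 0.11, limma adjusted p = 0.00469), *Tcf7l2* (0.43, SE 0.10, limma adjusted p = 0.00332) and *Dkk2* (−1.35, SE 0.24, limma adjusted p = 0.00071). For *Dkk2* the day change itself had opposite signs: it rose by 0.84 in shRNA CON (limma adjusted p = 0.000669) and fell by 0.51 in shRNA RUS (limma adjusted p = 0.0167), the latter lost without replicate 3 of day 5 or 4 of day 7 of shRNA RUS (limma adjusted p between 0.0542 and 0.0564), with TPM as deposited and with a pseudocount of 1. *Axin2* had 0.38 (SE 0.12, limma adjusted p = 0.0257), which was lost without replicate 3 of shRNA RUS on day 5 or 4 on day 7 (limma adjusted p between 0.0523 and 0.0546). The other 7 calls, of *Fzd10*, *Fzd7*, *Lrp6*, *Rspo2*, *Sfrp1*, *Wnt2b* and *Wnt5b*, were lost without 1 library in 2 (*Fzd10*) to 14 (*Wnt2b*) of the 16 fits that leave out a library. For *Fzd10* these libraries were replicate 3 of shRNA CON and replicate 4 of shRNA RUS on day 7.

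Other genes of the pathway were counted in 8 lists, which share some genes, with 65 different ones tested on day 5 and 63 on day 7. The lists were chosen with earlier results of these data known, so their counts are a description and no independent test. On day 5, 15 were higher and 11 lower, beside 32.7% of all genes called, and on day 7, 29 were higher and 13 lower, beside 49.2% of all genes. The medians below stand beside −0.06 and −0.03 for all genes on these days. Of the Dishevelled proteins and destruction complex, 4 of 14 were higher on day 5 and 12 of 14 on day 7, beside 14.8% and 23.4% of all genes called higher, with none lower and median differences of 0.15 and 0.38 on the log2 scale. The kinases *Csnk1d* and *Gsk3a* were higher on day 5 (0.34 and 0.26, limma adjusted p = 0.00150 and 0.0150). The cytoplasmic transducer *Dvl3* had 38.98 to 42.3 scaled TPM in shRNA CON against 60.3 to 68.9 in shRNA RUS on day 7 (0.71, SE 0.05, limma adjusted p = 3.50e-06), and *Apc2* had 24.1 to 28.7 and 34.8 to 40.7 (0.60, SE 0.07, limma adjusted p = 0.000100). Of 13 nuclear cofactors, 4 were higher and 2 lower on day 5, and 8 higher and 2 lower on day 7, with medians of 0.11 and 0.41. *Bcl9l*, a β-catenin coactivator, had day 7 levels of 19.6 to 24.6 in shRNA CON and 41.4 to 54.0 in shRNA RUS (1.13, SE 0.09, limma adjusted p = 8.96e-06). The Groucho corepressor *Tle1* had 26.8 to 29.0 and 54.1 to 61.0 on that day (1.02, SE 0.05, limma adjusted p = 3.75e-07), and was also higher on day 5 (0.38, limma adjusted p = 0.00262), as was the coactivator *Pygo2* (0.69, limma adjusted p = 0.000130).

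Of the 2 genes for Wnt secretion, the acyltransferase *Porcn* was higher on both days (0.35, limma adjusted p = 0.0110, and 0.25, limma adjusted p = 0.0182). The carrier *Wls* overlapped on day 5 and was lower on day 7, with 176, 170, 187 and 189 scaled TPM in shRNA CON and 102, 101, 101 and 95.2 in shRNA RUS (−0.84, SE 0.04, limma adjusted p = 4.70e-07). The counts that follow stand beside 14.8% of all genes called higher and 17.9% lower on day 5, and 23.4% and 25.8% on day 7. Among 9 other receptors, 2 were higher and 1 lower on day 5, and 4 higher and 1 lower on day 7, with medians of −0.03 and 0.38. The R-spondin receptor *Lgr4* was lower on both days (−0.46 and −0.28, limma adjusted p = 0.00286 and 0.00138), *Adgra2*, a Wnt7 coreceptor of brain vessels, was higher on both (0.53 and 0.71, limma adjusted p = 0.0240 and 0.0175), and *Ptk7* on day 7 (0.75, limma adjusted p = 2.65e-05). Of 7 planar polarity genes, 1 was higher and 3 lower on day 5, and 3 higher and 1 lower on day 7 (medians −0.31 and 0.06). *Prickle1* was higher on both days (0.53 and 0.45, limma adjusted p = 0.00884 and 0.0136), *Celsr2* lower on day 5 (−0.55, limma adjusted p = 0.000628) and *Celsr3* higher on day 7 (0.55, limma adjusted p = 0.000164). The other secreted regulators had 2 higher and 3 lower of 9 on day 5 and 1 and 4 of 9 on day 7 (medians −0.26 and −0.34). The Frizzled4 ligand *Ndp* had 24.6 to 26.5 against 49.3 to 50.8 on day 7 (0.99, SE 0.04, limma adjusted p = 1.22e-07), and *Sfrp5* was lower on both days (−1.02 and −0.42, limma adjusted p = 0.00244 and 0.0165). *Draxin* was lower on both days (−0.70 and −0.68, limma adjusted p = 0.000181 and 7.98e-06). For receptor turnover, 1 of 5 was higher and 1 lower on day 5, and none of 4 was higher and 1 lower on day 7 (medians −0.14 and −0.10). The lower one was each time *Kremen1*, a receptor of Dkk proteins (−0.57 and −0.18, limma adjusted p = 0.000756 and 0.0437).

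Of the genes reported elsewhere as Wnt targets, 1 of 11 was higher and 1 lower on day 5, and none of 10 was higher and 3 were lower on day 7 (medians −0.14 and −0.22). These counts stand beside 14.8% of all genes called higher and 17.9% lower on day 5, and 23.4% and 25.8% on day 7, and are near those shares for the lower genes of day 7. *Ccnd1*, which encodes cyclin D1 and responds to many growth signals, had 295 to 356 scaled TPM in shRNA CON and 131 to 144 with shRNA RUS on day 5 (log2 fold change −1.25, SE 0.06, limma adjusted p = 1.06e-05), and 110 to 119 against 46.0 to 53.8 on day 7 (−1.18, SE 0.05, limma adjusted p = 3.33e-07). The proliferation genes given above were lower in the same libraries, and their part in this value was not tested. *Bambi*, a decoy receptor of TGF-β signaling, was lower on day 7 only, with 9.69 to 10.3 against 5.34 to 6.48 (−0.73, SE 0.07, limma adjusted p = 2.22e-05). *Axin2*, *Nkd1* and *Tcf7*, named above, are often counted among the same targets and did not move in 1 direction.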

How the data were processed

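Per the authors, polyA-selected RNA was read on an Illumina NextSeq, with alignment by STAR against mm10 and quantification by RSEM on the GRCm38.99 transcripts. The deposited files are 2 tables, 1 for each day, of TPM for each library. They also give the base mean over 8 libraries, a signal of normalized counts that the authors made with DESeq2, and the fold changes, statistics and p-values of the authors' own comparison, which were not used. Lines were joined between days by symbol at the same place, and 106 of 55471 that differ were left out.

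Here, library factors were medians of ratios to geometric means over genes with at least 1 TPM in all libraries of a fit. Scaled TPM plus 0.1 were log2-transformed, and genes whose mean reached 0.1 TPM were tested two-sided with limma 3.58.1 (R 4.3.3; lmFit, eBayes with a trend), with Benjamini-Hochberg adjustment over all of them. Each day was fitted on 8 libraries, and day changes and the interaction on 16. The fits were tested on simulated data, in which far fewer genes differed than here. Among genes with a mean log2 level above 0, a log2 difference of 0.5 was recovered for 45.5% on day 5 and 57.6% on day 7. A difference of 1 was recovered for 80.6% and 88.1%. A gene that was not called can thus still differ. The largest correlation between 2 libraries was 0.981, and no 2 columns were identical. Alternatives were other pseudocounts (1, 0.01), filters (1 TPM, none), scalings (none, quantile, 75th percentile), eBayes without a trend, a replicate block, 1 fit for both days, and each library left out in turn. Positions came from GENCODE vM21 (GRCm38), not the authors' annotation release, and promoter sequences from RefSeq.

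The text names every Wnt pathway gene of the rule and, for each further list and day, the 2 called genes with the largest change at a mean of at least 1 TPM (for both days where that helps). The genes and lists were chosen with earlier results of these data known.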

Additional observations from a re-analysis of the deposited data

Results flagged for a closer look

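In 150 groups of 4 libraries, 10 had 1 library apart from the other 3 by Dixon's test, which chance alone does in about 1 of 20 groups. On day 5 these were replicate 4 of shRNA CON for *Fzd6* (10.6 scaled TPM), *Lrp5* (7.90) and *Tcf7l1* (11.5), and replicate 1 of shRNA CON for *Wnt5a* (24.5). On day 7 they were replicate 3 of shRNA CON for *Fzd10* (0.559), replicate 4 of shRNA CON for *Fzd4* (6.21), replicate 1 of shRNA RUS for *Wnt2b* (1.43), replicate 2 for *Wnt5b* (26.8), and replicate 3 for *Wnt5a* (31.4) and *Wnt8a* (0.318).

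By the interaction term of the limma fit over 16 libraries, a change of the shRNA difference between the days was called for 14 of 38 genes. This is 36.8%, against 29.8% of all genes. Only 6 of the 14 were called in every alternative (*Dkk2*, *Fzd5*, *Lrp5*, *Tcf7l2*, *Wnt7b*, *Wnt9a*). The log2 interaction, day 7 minus day 5, was 0.81 for *Wnt7b*, 0.74 for *Fzd10*, 0.69 for *Fzd5*, 0.61 for *Wnt2b*, 0.49 for *Wnt9a*, 0.47 for *Lrp5*, 0.44 for *Wnt5b*, 0.43 for *Tcf7l2*, 0.40 for *Lrp6* and 0.38 for *Axin2*. It was −1.35 for *Dkk2*, −0.80 for *Rspo2*, −0.29 for *Fzd7* and −0.13 for *Sfrp1*.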

How the results depend on the processing

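Of the 15 calls on day 5, 9 held under all alternatives that tested them (*Dkk2*, *Dkk3*, *Rspo2*, *Sfrp1*, *Tcf7*, *Tcf7l1*, *Wnt2b*, *Wnt7b*, *Wnt9a*), and of the 20 on day 7, 18 did (all but *Fzd6* and *Lrp5*); *Dkk2*, *Rspo2* and *Wnt2b* on day 5 and *Rspo2* on day 7 were below the filter at 1 TPM and were not tested there. On day 5 *Rspo2* was tested only through the group where it was high, with its controls below the filter of 0.1 TPM. The 9 lower calls of day 5 became 5 with a filter at 1 TPM or quantile normalization, and 4 to 8 without 1 library, with 4 without replicate 2 or 3 of shRNA CON. Without replicate 4 of shRNA RUS, 8 were higher and 8 lower. Filtering at 1 TPM also tests fewer genes. The 4 negative interactions became 2 without a filter or with 75th percentile scaling, 1 with TPM as deposited and 1 to 4 without 1 library, and the 10 positive ones 7 to 11. Other counts without 1 library were 5 to 8 higher on day 5, 11 to 13 higher and 7 to 9 lower on day 7, 14 to 15 and 9 to 11 for the day change in shRNA CON, and 15 to 17 and 9 to 11 in shRNA RUS. Among values called as reported or with TPM as deposited, 2 turned sign with the latter: the day change of *Fzd7* in shRNA RUS was 0.27 (as reported −0.05, not called), and the interaction of *Sfrp1* 0.038 (as reported −0.13). Differences called in neither turned sign too, such as that of *Ctnnb1* on day 5 (0.07 as reported, −0.09 with TPM as deposited). With TPM as deposited, the median of all genes moved too, from −0.06 to −0.21 on day 5 and from 0.13 to 0.41 for the day change in shRNA RUS. For the interaction it moved from 0.04 to 0.19. The part of this shift in the turned signs was not tested. The depth of the libraries is unknown, and TPM with 2 decimals limit genes near 0.1 TPM most.

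Replicate numbers are shared between the groups, but same-numbered libraries did not deviate together (correlations between −0.25 and 0.10), so the numbers were not used as pairs. With a replicate block, 5 genes were higher and 4 lower on day 5, 11 and 8 on day 7, and 9 interactions were positive and 2 negative.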

Other observations

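Symbols below the filter were not silent in every library. *Wnt8b*, a ligand of the cortical hem, was above 0 in all 16 libraries, with 0.0117 to 0.136 scaled TPM, and *Wnt10b* was above 0 in 14, at 0 to 0.0734 in the controls and 0.0273 to 0.127 with shRNA RUS. *Wnt9b* was listed at 0 in all libraries but 1.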
